A study of Mus musculus with 6 samples.

Results

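The genes of MHC class II antigen presentation were followed in endothelial cells sorted from mouse LN. The 9 genes were H2-Aa, H2-Ab1 and H2-Eb1, which encode the classical class II chains, Cd74, which encodes the invariant chain, H2-DMa, H2-DMb1 and H2-Oa, which encode chains of the peptide-loading molecules H2-M and H2-O, Ctss, which encodes the protease cathepsin S, and Ciita, which encodes the class II transactivator. They were taken by gene symbol, with all of their probe sets, out of 18193 genes that have a probe set of their own on the array. All 9 were measured, by 18 probe sets, of which 16 belong to 1 gene and 2 are shared by H2-DMb1 and its neighbour H2-DMb2. H2-DMb1 has no probe set of its own.

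RNA came from pooled skin-draining and mesenteric LN of 6-week-old C57BL/6 mice with no transgene or treatment. CD45-positive cells were depleted on magnetic beads, and the remaining live CD45-negative cells were sorted by gp38 and CD31. There were 3 arrays labelled CD31+ and 3 labelled double positive, numbered 1 to 3 in each group, and by the design of the series each number marks a pair. The labels name the CD31+ arrays as lymphatic and the double-positive arrays as blood endothelium, whereas the gates given for the study place lymphatic cells in gp38+ CD31+ and blood cells in gp38- CD31+. The arrays are named here by their gate, and every difference is double positive minus CD31+. Read by the cell type word, the values stay as given and only the names of the groups are exchanged.

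The values are log2 RNA abundances normalized by the authors with GCRMA, with a common floor at 2.39. Of the lymphatic endothelial markers, 5 of 7 were higher on every double-positive array than on any CD31+ array, and of the blood endothelial markers 6 of 7 were lower on every double-positive array, so most of the markers followed the gate word. Ccl21a, a chemokine listed with the lymphatic markers and read by a shared probe set, went against the gate word. It was lower on every double-positive array, with means of 10.13 and 6.39. In the remaining markers of both lists the groups overlapped. Probe sets at log2 5 or above made up 10.7% to 12.6% on the CD31+ arrays and 13.8% to 14.7% on the double-positive arrays. Among the 3984 genes with a mean log2 of at least 5 the median difference was 0.73, and over all genes it was 0.00. The probe set of Pecam1, which encodes the CD31 used for the sort, lay at 2.39 to 2.59 on all 6 arrays, so a value at the floor does not show that a transcript was missing from the cells.

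Class II molecules are heterodimers of an alpha and a beta chain that carry peptides from endosomes to the cell surface for CD4+ T cells. The invariant chain fills the groove until endosomal proteases trim it to a short fragment, which H2-M exchanges for peptide while H2-O restrains H2-M. Dendritic cells, B cells and macrophages make class II constitutively, and other cells, endothelium among them, can be induced to do so by interferon gamma, which acts through Ciita. Ciita does not bind DNA itself but sits on factors bound to the X1, X2 and Y boxes of the class II promoters, where RFX, CREB and NF-Y bind.

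Promoter sequences are shown for 4 of the genes because the class II chains share these boxes while Ctss is a protease gene of another family. The sequences are the 130 bases before the RefSeq start, 5′ to 3′ on the strand of the gene, from assembly GRCm38.p6, and a RefSeq window was at hand for 6 of the 9 genes. Capitals mark the letters searched on both strands, which were GCAAC for the X1 core, TGACG for the X2 core and ATTGG for the Y core. The overlapping TGACG of both strands appears as a single run of capitals in H2-Aa.
H2-Aa (chr17:34287824-34287953, minus strand): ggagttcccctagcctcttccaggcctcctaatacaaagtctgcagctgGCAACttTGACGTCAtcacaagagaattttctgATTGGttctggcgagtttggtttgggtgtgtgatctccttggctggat
H2-Eb1 (chr17:34305737-34305866, plus strand): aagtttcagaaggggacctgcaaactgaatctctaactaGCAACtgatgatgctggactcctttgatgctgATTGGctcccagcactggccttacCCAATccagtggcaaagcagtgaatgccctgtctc
H2-Oa (chr17:34092249-34092378, plus strand): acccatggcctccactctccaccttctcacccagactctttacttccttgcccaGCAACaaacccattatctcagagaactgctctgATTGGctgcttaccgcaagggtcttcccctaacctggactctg
Ctss (chr3:95526656-95526785, plus strand): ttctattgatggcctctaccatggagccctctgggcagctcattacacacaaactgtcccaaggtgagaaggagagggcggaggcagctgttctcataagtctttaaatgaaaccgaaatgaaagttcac
In the 250 bases before the start, GCAAC was followed by ATTGG on the gene strand at 20 to 40 bases in H2-Aa, H2-Eb1 and H2-Oa, that is in 3 of the 6 members with a window. The distance between the first letters was 33 bases in H2-Aa, 32 in H2-Eb1 and 33 in H2-Oa. This ordered pair occurred in 0.475% of 32851 promoter windows of the same length, whereas the single motifs were common, GCAAC in 29.9%, TGACG in 17.8% and ATTGG in 33.8% of them. The pair and its spacing were chosen after these sequences were seen. Among the other class II genes the pair was found in H2-Eb2 and H2-Ob, and it was not found in the windows of H2-DMa, H2-DMb1, H2-DMb2 or Ctss. Of the members that carry the pair, only H2-Aa reached log2 5 on any array.

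**Figure D1:**
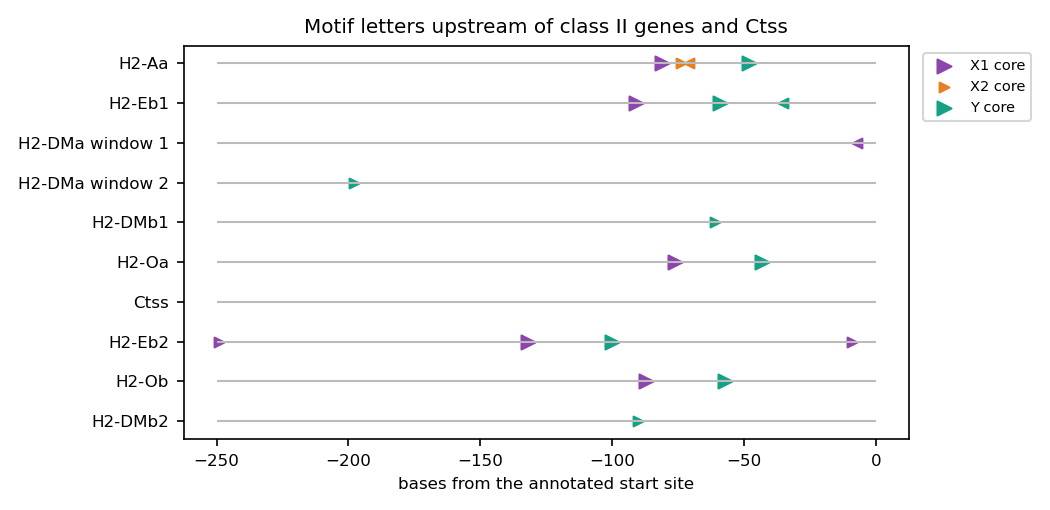
Positions of the X1 (GCAAC), X2 (TGACG) and Y (ATTGG) core letters in the 250 bases before the RefSeq start of each gene with a window, with distance from the start in bases on the x axis and 1 line per window. Larger symbols mark an X1 core followed by a Y core at 20 to 40 bases, which H2-Aa, H2-Eb1, H2-Oa, H2-Eb2 and H2-Ob hold and Ctss does not.

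H2-Aa, the alpha chain of I-A, was the class II chain with clear signal, and it was higher in the CD31+ cells. At its brightest probe set (1435290_x_at) the log2 values were 8.34, 8.30 and 7.70 on the CD31+ arrays and 6.54, 5.77 and 6.17 on the double-positive arrays. All CD31+ arrays lay above all double-positive arrays. The group means were 8.11 ± 0.357 and 6.16 ± 0.385 (SD, n = 3 each), a difference of -1.95 (standard error 0.290, 95% interval -2.74 to -1.17), or 3.87-fold more in CD31+ cells. This difference did not pass 5% FDR over all 45037 probe sets (adjusted p = 0.108 from limma). Over the 6088 probe sets that reach log2 5 on at least 3 arrays it passed without the replicate number as a block (adjusted p = 0.00257 from limma) and with it (adjusted p = 0.000478 from limma), and this probe set is above 5 on all 6 arrays.

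A second bright probe set of H2-Aa (1438858_x_at) gave the same order of the groups. It read 8.98, 8.39 and 7.95 on the CD31+ arrays and 6.41, 5.88 and 5.16 on the double-positive arrays, again without overlap. The difference was -2.63 (standard error 0.451, adjusted p = 0.145 from limma over all probe sets and 0.00170 over the bright ones, of which 3.81% were called lower and 32.9% higher). In a dimmer probe set (1443783_x_at) the CD31+ arrays lay at 3.89, 3.88 and 3.94 and the double-positive arrays near the floor, at 2.39, 2.47 and 2.47. With replicates this close, its difference of -1.46 (standard error 0.0313) was the only one among the 18 probe sets to pass over all probe sets (adjusted p = 0.00430 from limma), where 0.113% of probe sets were called lower and 0.502% higher. It did not pass with the replicate block (adjusted p = 0.0972 from limma). The remaining probe set (1452431_s_at) gave 2.60, 2.41 and 2.41 on the CD31+ arrays and 2.41 on every double-positive array. The probe sets of H2-Aa thus disagree on whether the gene is bright, and the 3 that separate the groups are all of the x_at type, whose probes can also match other transcripts. Whether such matches contributed was not tested.

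H2-Ab1, the beta chain that pairs with H2-Aa in I-A, stayed below log2 4 on every array. Its brightest probe set had log2 values of 3.19, 3.15 and 3.65 on the CD31+ arrays and 3.13, 2.90 and 3.13 on the double-positive arrays. The groups did not overlap, but the gap between them was small beside the spread within the CD31+ arrays, and the difference of -0.28 (95% interval -0.73 to 0.18) did not pass (adjusted p = 0.659 from limma). Of its other probe sets, 1 read 2.61, 2.60 and 2.70 on the CD31+ arrays and 3.02, 2.56 and 2.49 on the double-positive arrays, with a difference of 0.05, and 1 lay at 2.39 on all 6 arrays.

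H2-Eb1, the beta chain of I-E, read 3.78, 2.69 and 2.69 on the CD31+ arrays and 2.69, 2.69 and 2.43 on the double-positive arrays. A single CD31+ array stood above the others, and the remaining arrays of both groups shared a narrow range. The difference was -0.45 (95% interval -1.41 to 0.51, adjusted p = 0.659 from limma). H2-Ea, the alpha chain of I-E, which C57BL/6 mice do not express, read 3.77 to 4.61 across the 6 arrays at its brightest probe set. Its other probe sets lay near the floor, at 2.43 to 2.52 and at 2.39 on all 6 arrays. At the brightest probe set of H2-Ea the groups overlapped, and the means differed by -0.13, which did not pass (adjusted p = 0.917 from limma).

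**Figure D2:**
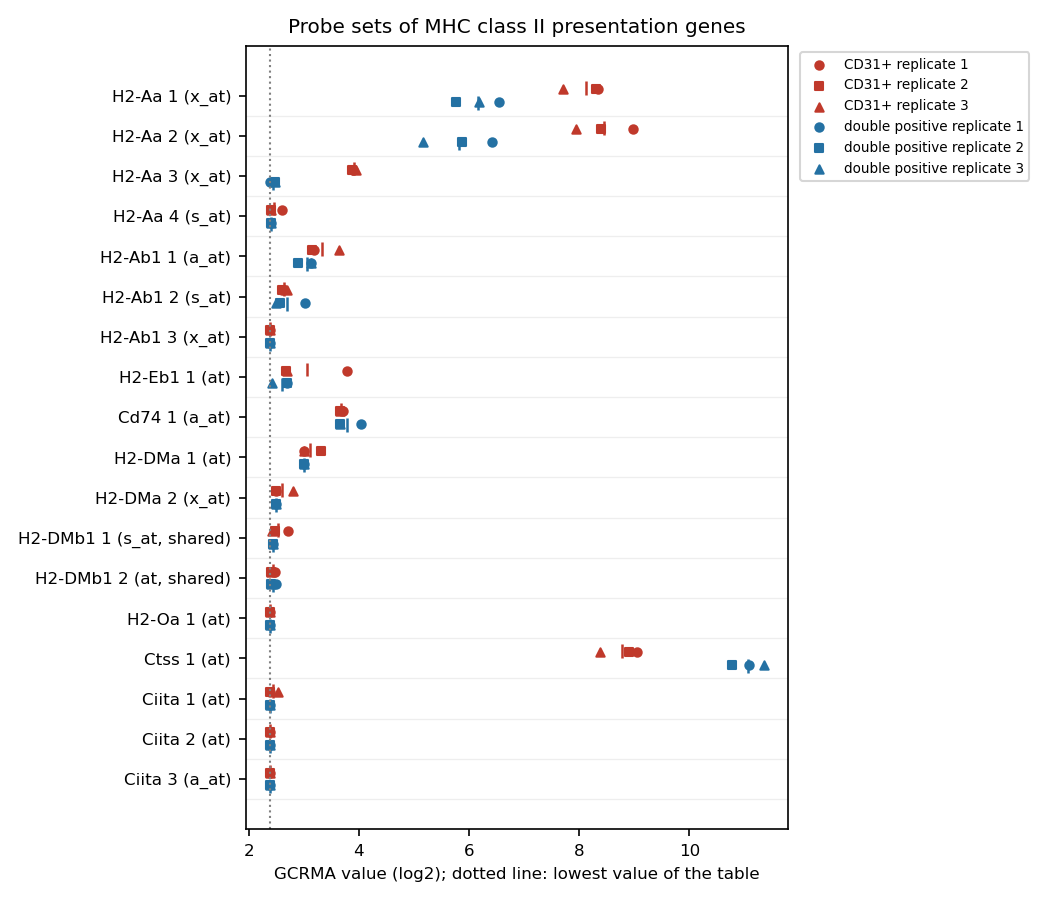
Log2 RNA abundance of each probe set of the 9 class II presentation genes on the 6 arrays. Points are single arrays, vertical bars mark the mean of 3 arrays, and the floor at 2.39 is drawn as a line. Probe sets of a gene are numbered from the brightest, and H2-Aa 1, H2-Aa 2 and Ctss are the ones that reach log2 5, while the other 15 stay at or below 4.04.

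Cd74, whose product escorts the class II chains to endosomes, had log2 values of 3.72, 3.65 and 3.65 on the CD31+ arrays and 4.04, 3.65 and 3.65 on the double-positive arrays. The same lowest value of 3.65 was recorded on 4 of the arrays, and the groups overlapped. The difference of 0.11 (95% interval -0.23 to 0.44) did not pass (adjusted p = 0.709 from limma). Its sign rested on a single array, since it was -0.02 without double-positive replicate 1.

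The genes of peptide loading stayed close to the lowest values of their probe sets. H2-DMa, the alpha chain of H2-M, read 3.01, 3.32 and 3.01 on the CD31+ arrays and 3.01 on each double-positive array, and its second probe set read 2.50, 2.50 and 2.80 against 2.50 on each double-positive array. In both probe sets 5 of the 6 arrays held the same lowest value, and the differences were -0.10 each. H2-DMb1, the beta chain of H2-M, was read by the probe sets it shares with H2-DMb2, at 2.41 to 2.71 and without separation of the groups. H2-Oa, the alpha chain of H2-O, lay within 0.1 of the floor on all 6 arrays. At this level no difference between the groups could be seen in either direction.

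Ciita, the switch of the class II promoters, gave no signal above the floor by which the groups could be compared. Of its probe sets, 2 lay at 2.39 on all 6 arrays, and the remaining one read 2.39, 2.39 and 2.54 on the CD31+ arrays and 2.39 on each double-positive array. The difference there was -0.05. Ciita, H2-DMb1 and H2-Oa were the 3 members with every value below log2 3.

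Ctss, the other member with clear signal, was higher in the double-positive cells. Cathepsin S removes the last part of the invariant chain in dendritic cells, B cells and macrophages, and is also a lysosomal and secreted elastase. Its log2 values were 9.05, 8.90 and 8.38 on the CD31+ arrays and 11.08, 10.77 and 11.34 on the double-positive arrays. The groups were far apart compared with the spread within them, and the double-positive array was the higher in 3 of 3 pairs. Means were 8.78 ± 0.353 and 11.07 ± 0.286 (SD, n = 3 each), and the difference was 2.29 (standard error 0.251, 95% interval 1.61 to 2.97), or 4.89-fold more in double-positive cells. It did not pass over all probe sets (adjusted p = 0.0606 from limma), and passed over the bright probe sets (adjusted p = 0.000809 from limma) and there with the replicate block as well (adjusted p = 0.000177 from limma). With each array centred as well the difference was 1.61 and still passed (adjusted p = 0.00174 from limma).

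Counted by gene over all probe sets, limma called 1 of the 9 members lower in double-positive cells, H2-Aa, and 0 higher. With p-values left unadjusted and a threshold of 0.05 the counts were 1 lower and 1 higher. In the same fit 0.225% of genes were called lower and 1.06% higher. With the replicate block limma called 0 members in either direction, and the unadjusted counts were again 1 and 1. H2-Aa was also not called once both arrays numbered 2 were left out. With the filter on dim probe sets only H2-Aa and Ctss could be tested, and they were called lower and higher, beside 4.34% and 36.0% of 4213 genes. A higher call was thus frequent among bright genes. All double-positive arrays lay above all CD31+ arrays for 46.9% of the genes with a mean of at least 5, as for Ctss, and below them for 5.50%, as for H2-Aa. Over all genes these shares were 16.9% and 3.42%. At the brightest probe sets 6 of the 9 members had a difference below 0, 2 had one above 0 and H2-Oa had none, with a median of -0.09.

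Because the arrays came from sorted bulk RNA, fewer cells of a type and less RNA per cell cannot be told apart. Blood-borne antigen-presenting cells make class II constitutively, so their markers are given beside H2-Aa and Ctss. Of 10 pan-hematopoietic markers, 8 stayed below log2 5 on all arrays, and the linear values summed over the list ran from 1870.5 to 2118 on the CD31+ arrays and from 1080.1 to 1727 on the double-positive arrays. Most of that sum was Laptm5, at mean log2 values of 10.87 and 10.29 at its brightest probe set. Its other probe sets did not share this level. The next had means of 5.42 and 3.26, and the rest had group means of 2.50 to 2.88. Ptprc, which encodes CD45, had means of 3.72 and 2.67. Of this list, 3 markers were lower on every double-positive array, as H2-Aa was, beside 3.42% of all genes. A further 1 was higher on every double-positive array, beside 16.9% of all genes. The part of hematopoietic RNA in the H2-Aa difference was not tested.

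B cell markers gave no clear signal by which the groups could be compared. All 9 measured stayed at or below log2 3.09, and Cd79a, Blk and Cd22 lay near the floor. The summed values were 53.2 to 56.5 on the CD31+ arrays and 52.6 to 53.2 on the double-positive arrays. Sums of values this low cannot show whether B cell RNA differed between the groups. T cell markers summed to 694 to 824 and 262 to 500.4, with Cd8a the only marker of the 8 measured to reach log2 5. Of 10 dendritic cell markers, 7 were near the floor on all arrays, among them Itgax and Flt3, and the sum ran from 91.8 to 105 on the CD31+ arrays and from 423 to 552 on the double-positive arrays. Irf8, a transcription factor of several blood lineages, was the only marker of this list to reach log2 5, with means of 5.54 and 8.73, a difference of 3.19. It was called higher over all probe sets (adjusted p = 0.0169 from limma), but not with the replicate block (adjusted p = 0.109 from limma) nor with any single array left out. Over the bright probe sets, of which 32.9% were called higher, Irf8 passed without the block (adjusted p = 8.61e-05 from limma) and with it (adjusted p = 7.08e-06 from limma).

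The macrophage markers had a median difference of 0, and their sum was 136 to 161 on the CD31+ arrays and 249.6 to 521 on the double-positive arrays. Of the 13 markers, 5 were near the floor on all arrays (Cd68, Siglec1, C1qb, C1qc and Cd163) and 3 reached log2 5 (Mrc1, Marco and Mertk). Of the 13, 2 were higher on every double-positive array, beside 16.9% of all genes, so nothing is drawn from this count. These 2 carried the gap in the sum. Marco, a scavenger receptor, had means of 2.88 and 7.55, and Mrc1, the mannose receptor, of 3.41 and 6.06. Neither passed over all probe sets, with the smaller adjusted p at Mrc1 (0.0520 from limma). Mertk, a receptor for the uptake of dying cells, had means of 6.08 and 5.79 and was the lower in double-positive cells in 3 of 3 pairs, without a call (adjusted p = 0.659 from limma). Marco and Mrc1 are also known from lymphatic endothelium of the LN. The part of macrophage RNA in the Ctss difference was not tested.

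Markers of other stromal cells are given beside H2-Aa as well. The 8 markers of fibroblastic reticular cells summed to 222 to 799 on the CD31+ arrays and 95.05 to 170.2 on the double-positive arrays. Of these, 4 were lower on every double-positive array, beside 3.42% of all genes. Col1a2 and Col3a1, chains of fibrillar collagens, had means of 6.45 and 3.34 and of 7.22 and 4.08, and Pdgfrb, a growth factor receptor of mural and reticular cells, of 6.89 and 3.97. None of these markers passed 5% FDR in limma over all probe sets. Before adjustment 4 of them had a limma p below 0.05, each lower in double-positive cells. Filtering gave lower calls for Pdgfrb, Col1a2 and Col3a1, beside 4.34% of the genes tested there. They met the filter through their CD31+ arrays, so these calls are not used. High endothelial venule markers summed to 4629 to 31384 and 7267 to 12742, so the groups overlapped. Of the 5, 1 was lower on every double-positive array, beside 3.42% of all genes. This was Ackr1, an atypical chemokine receptor of venules, with means of 6.04 and 3.91 (adjusted p = 0.165 from limma). The part of stromal or venule RNA in the H2-Aa difference was not tested.

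**Figure D3:**
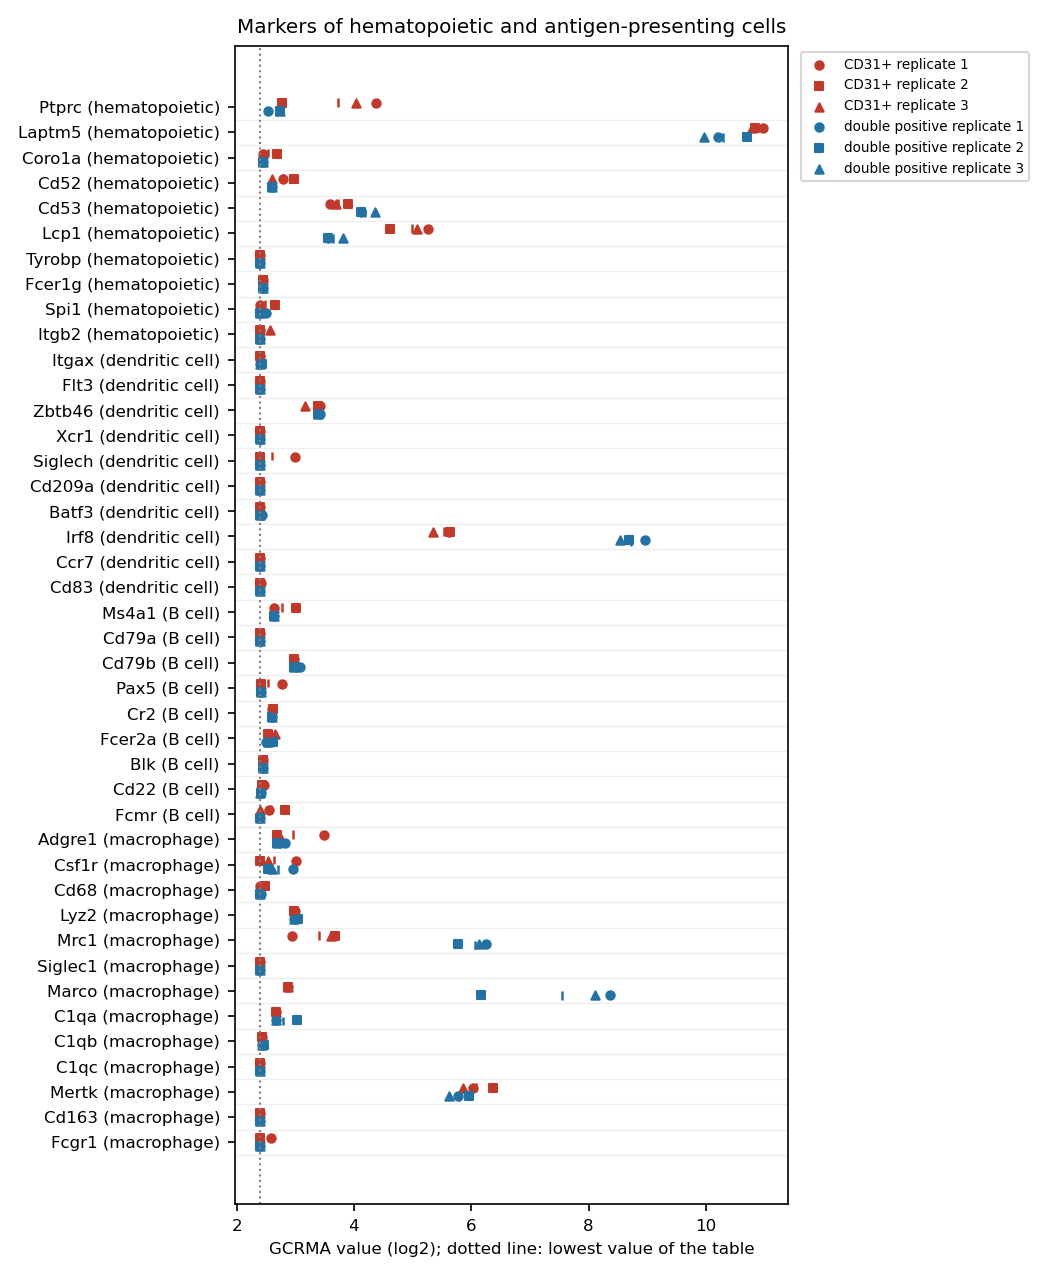
GCRMA values of marker lists on the 6 arrays. Linear values summed over each list are given in the text. The dendritic cell and macrophage sums were higher on the double-positive arrays, at 423 to 552 and 249.6 to 521. Irf8 carried the gap in the first sum, and Marco and Mrc1 that in the second. The pan-hematopoietic sum, most of it Laptm5, was higher on the CD31+ arrays. So was the T cell sum, where only Cd8a reached log2 5, and T cell markers are not drawn. The B cell sums stayed between 52.6 and 56.5, with no marker above log2 3.09.

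The wider class II pathway was described by 33 further genes, of which 32 were measured. Over all probe sets limma called 2 of them higher in double-positive cells, Ctsl and Jak1, and 0 lower, against 1.06% and 0.225% of all genes. Without adjustment 9 had a p under 0.05 in the higher direction and 0 in the lower one, and with the replicate block no call was left, although 12 had an unadjusted p under 0.05. Over the bright probe sets 6 of the 16 genes that could be tested were called higher, close to the background of 36.0%, and of these Ctsd, Ctsh and Jak1 would not have met the filter on their CD31+ arrays alone. The median difference of the 32 genes was 0.25.

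Of the endosomal protease list, 4 of the 7 genes with a mean log2 of at least 5 were higher on every double-positive array. These were Ctsb, Ctsd, Ctsh and Ctsl, beside 46.9% of all genes with such a mean. Lgmn, a listed gene that stayed at or below log2 3.24, was also higher on every double-positive array. Ctsl, or cathepsin L, which trims the invariant chain in thymic epithelium, read 8.61, 8.40 and 8.42 on the CD31+ arrays and 10.17, 10.62 and 10.58 on the double-positive arrays. The groups were well apart, and the difference of 1.98 (standard error 0.153), or 3.94-fold, passed over all probe sets (adjusted p = 0.0347 from limma) but not with the replicate block (adjusted p = 0.245 from limma). Over the bright probe sets it passed without the block (adjusted p = 0.000970 from limma) and with it (adjusted p = 0.000320 from limma).

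Ctsh, an aminopeptidase of the same compartment, read 6.25, 6.03 and 4.48 on the CD31+ arrays and 9.86, 9.03 and 8.92 on the double-positive arrays. Its difference of 3.68, or 12.8-fold, did not pass over all probe sets (adjusted p = 0.133 from limma). With 2 CD31+ arrays at log2 5 or above, it too met the filter through its double-positive arrays. A second probe set of Ctsh, not of the x_at type, separated the groups alike, at 3.33, 4.34 and 2.89 against 7.67, 7.63 and 7.56. Ctsd, an aspartic protease, read 3.24, 5.27 and 4.51 against 5.35, 5.76 and 6.70, with the groups close to each other, and its difference of 1.60 did not pass over all probe sets (adjusted p = 0.659 from limma). With 1 CD31+ array at log2 5 or above, it met the filter through its double-positive arrays, so its call there is not used.

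Other genes of antigen processing passed neither over all probe sets nor over the bright ones without the block. Ctsb, a further cysteine protease, had a difference of 1.02 (adjusted p = 0.0643 from limma over the bright probe sets, and 0.0210 there with the block). Ifi30, the thiol reductase of endosomes, read 4.50 to 5.40 with a difference of -0.17, and Cst3, which encodes the cathepsin inhibitor cystatin C, had the same mean in both groups (95% interval of the difference -1.37 to 1.37). Sppl2a, which clears the remaining membrane stub of the invariant chain, had a difference of -0.09 at its brightest probe set. At a second one the difference was -0.60 (adjusted p = 0.195 from limma over the bright probe sets). The list of 10 genes held 1 call over all probe sets, beside a background of 1.06%, and 3 among the 7 genes bright enough for the filter, beside 36.0%. Of these 3, Ctsd and Ctsh met the filter through their double-positive arrays, so nothing is drawn from this count.

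**Figure D4:**
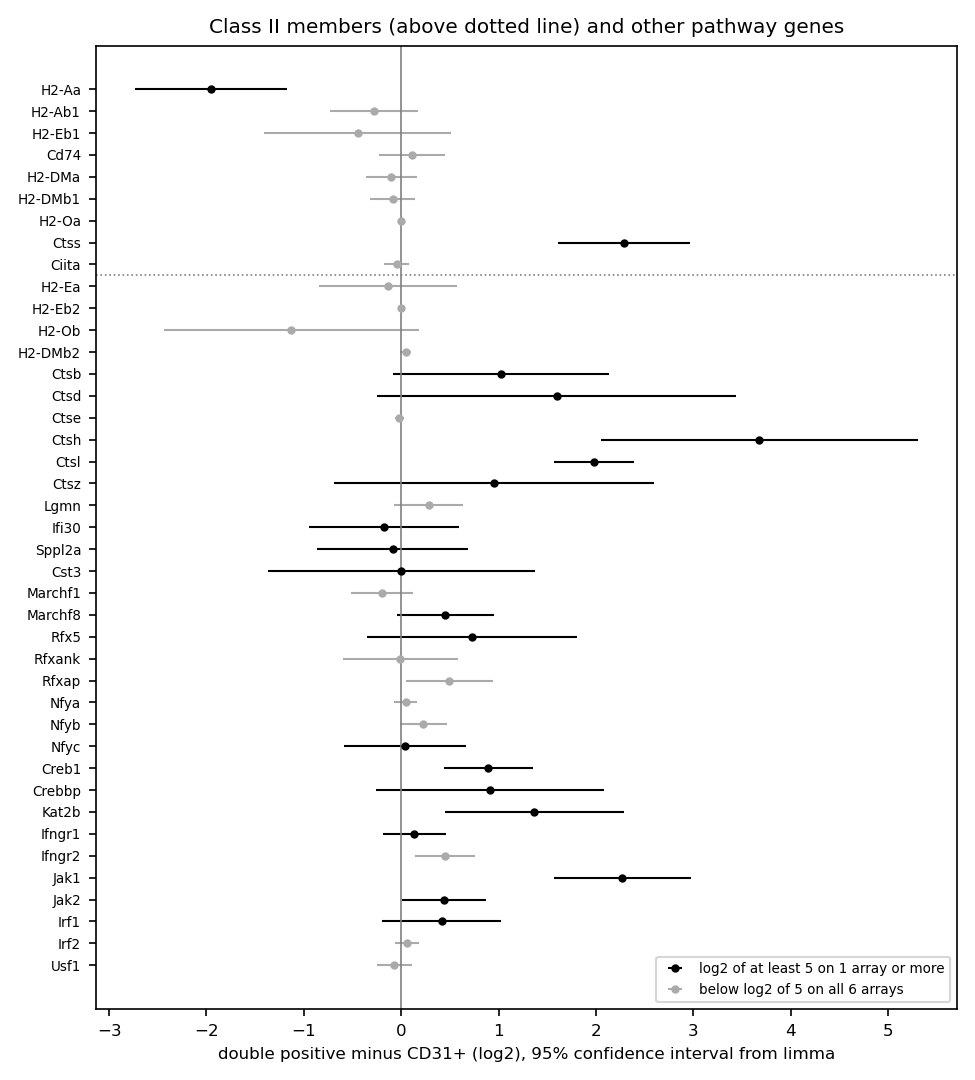
Difference in log2 RNA abundance, double positive minus CD31+, for the 9 members and the 32 measured pathway genes at the brightest probe set of each, with 95% intervals from limma. Ctss, Ctsl, Ctsh and Jak1 are among the genes to the right of 0, and H2-Aa lies to the left. The members with values near the floor have narrow intervals around 0.

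The remaining class II chains and loading genes had no call. H2-Ob, the beta chain of H2-O, read 3.63, 4.41 and 2.66 on the CD31+ arrays and 2.43, 2.49 and 2.39 on the double-positive arrays. Its groups did not overlap, yet the CD31+ arrays were spread widely, and the difference of -1.13 (95% interval -2.43 to 0.18) did not pass (adjusted p = 0.659 from limma). H2-Eb2 lay within 0.1 of the floor on all 6 arrays and H2-DMb2 at 2.48 to 2.58. The ligases that mark class II for turnover were not called either. Marchf8 had a difference of 0.45 (adjusted p = 0.627 from limma), which became -0.22 after centring, and Marchf1 had one of -0.20 (adjusted p = 0.659 from limma).

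Factors of the class II promoter were measured for 9 genes, with no call over all probe sets and 2 calls among the 4 genes bright enough for the filter, where 36.0% of genes were called higher. Creb1, which binds the X2 box, had a difference of 0.89 (adjusted p = 0.0363 from limma over the bright probe sets, 0.616 after centring). Kat2b, an acetyltransferase recruited by Ciita, had a difference of 1.37 (adjusted p = 0.0174 from limma over the bright probe sets, 0.146 after centring). The subunits of RFX lay at 4.19 to 5.75 for Rfx5, 2.65 to 3.28 for Rfxank and 3.99 to 4.95 for Rfxap. Among these, Rfxap was higher on every double-positive array, with a difference of 0.49 that did not pass (adjusted p = 0.489 from limma).

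In the interferon gamma signal that leads to Ciita, Jak1 was the gene with a call. This kinase of the interferon receptor read 4.52, 5.24 and 4.87 on the CD31+ arrays and 7.17, 6.83 and 7.45 on the double-positive arrays at its brightest probe set. The difference of 2.27 missed the threshold over all probe sets (adjusted p = 0.0671 from limma), and that of a second probe set, 2.07, passed it (adjusted p = 0.0433 from limma, 0.264 with the replicate block). With 1 CD31+ array at log2 5 or above, the brightest one met the filter through its double-positive arrays, so its call there is not used. The receptor chains differed by 0.14 for Ifngr1 and 0.45 for Ifngr2, Jak2 by 0.44 and Irf1, a transcription factor induced by interferon, by 0.42, with no call for any of them.

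The genes with the array profile most like each bright member were sought among genes with a mean of at least 5, by the root-mean-square difference between profiles centred on their own means. For H2-Aa these were Mfhas1 at 0.113, Col4a2, a collagen chain of basement membranes, at 0.127 and Tmcc3 at 0.185. For Ctss they were Tiparp at 0.123, Abhd17b at 0.124 and Wnk1 at 0.127. These distances are log2 units over 6 arrays, and no protease was among them. Of the class II chains and loading genes listed here only H2-Aa had a mean of at least 5, so no other could have been found.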

How the data were processed

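Cells of each gate were sorted from pooled LN, and 20 ng of RNA per sample was amplified in 2 rounds before hybridization to mouse genome arrays. The deposited values are log2 abundances that the authors normalized with GCRMA, 1 per probe set and array. The versions the authors used and the arrays normalized together are not given in the sources used here. Of 45101 probe sets, 64 controls were left out and 45037 were tested. The platform table gave 1 gene for 34945, several for 932 and none for 9160, and 34741 of the first matched a RefSeq table for current symbols.

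Double-positive and CD31+ arrays were compared in R 4.3.3 by limma 3.58.1 (default lmFit and eBayes) with no filter and no block, and p-values were adjusted by Benjamini-Hochberg over all probe sets at 5% FDR. A gene was called if at least 1 of its own probe sets passed, or a shared one where it had no other. Its value was taken at its own probe set with the highest mean. The filter on dim probe sets asked for log2 5 on at least 3 arrays, which also admits genes bright in 1 group alone. Residual degrees of freedom were 4. The test was checked on simulated data. Precision is limited by having 3 arrays per group, and 37.4% of probe sets lay within 0.1 of the floor on all arrays.

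Every member was named at every probe set. Pathway genes were named where they passed with or without the filter, or had 1 of the 2 smallest adjusted p-values of their list, and any other listed gene in the text was picked once its values were known. The members and all lists were chosen with earlier results of these data known. Data of the study from other assays were not analysed here.

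Same-numbered arrays deviated together from their group means (correlations of 0.341, 0.475 and 0.418 over 5764 bright probe sets, against -0.405 to 0.0566 for other pairs), and the series design describes pairs, so the numbers were taken to pair the arrays. Alternatives were the replicate block, the filter, centring, both combinations with the filter, trend and robust eBayes, array weights, averaging per gene, the probe set with the smallest p, 1% FDR and each array left out. Removal of both arrays numbered 2 was chosen after seeing the data. Python 3.11.15 and matplotlib 3.10.9 served for the plots.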

Additional observations from a re-analysis of the deposited data

How the results depend on the processing

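The floor limits what could be seen for Cd74, Ciita and the H2-M and H2-O genes, and with so few prior degrees of freedom (0.356 without the filter, 4.92 with it) the calls depend on the filter. Members called higher in double-positive cells were 0. The count was 1 under the filter alone, under filter plus replicate block, under centring with or without the filter, and for probe sets averaged per gene. Members called lower were 1, but 0 with the replicate block, 0 with both arrays numbered 2 left out, and 8 with centring. Centring lowers every difference by 0.68, floor values included, so its lower calls among dim genes follow from its construction. The member counts were the same when any single array was left out.

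Pathway genes called higher were 2, against 0 with the replicate block, 6 with the filter, 8 with both, 5 with centring, 0 with trend and robust, 0 with both arrays numbered 2 left out, 0 at 1% FDR, and 0 to 1 with 1 array left out. Pathway genes called lower were 0, with 22 under centring and 1 (Sppl2a, at its second probe set and not its brightest) under filter and centring. Ctsl kept its difference, at 1.86 to 2.12 without single arrays or both numbered 2, but lost its call except without double-positive replicate 1.

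Probe sets called were 277, against 4 with the replicate block, 2232 with the filter, 3177 with both, 36555 with centring, 1291 with the filter and centring, 60 with both arrays numbered 2 left out, 7 at 1% FDR, and 66 to 144 with 1 array left out. Signs turned for Cd74 (0.11, to -0.57 centred and -0.023 without double-positive replicate 1, in a range of -0.023 to 0.17 over single arrays left out), H2-DMb2 (0.04, to -0.63 centred and -0.035 averaged per gene), Marchf8 (0.45, to -0.22 centred, with or without the filter) and Ifngr2 (0.45, to -0.23 centred). None of these was called before centring, and Cd74 and H2-DMb2 were called lower after it. H2-Aa and Ctss kept their direction under every alternative. The cause of the other shifts was not tested.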
